A study of Mus musculus with 6 samples.

Results

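The genes described here encode the cohesin complex, its main regulators and the insulator protein CTCF. They were the 10 genes Stag1, Stag2, Smc1a, Smc3, Rad21, Nipbl, Wapl, Pds5a, Pds5b and Ctcf, taken by gene symbol from an array of 19494 named genes, and each had 1 row. The set was chosen by function around Stag1, which had been selected on its log2 difference between the compared fractions. For these genes the difference between fractions is therefore given as a description without a test. The RNA came from regulatory T cells (Tregs) of mice of the genotype Foxp3-RFP x GPR15-GFP, isolated by sorting out of tumour-bearing colonic lamina propria. All animals carried a red reporter for Foxp3, the transcription factor of Tregs, and a green reporter for GPR15, a homing receptor of T cells in the large intestine. All had been given the carcinogen azoxymethane (AOM) and the gut irritant dextran sulfate sodium (DSS), which together induce colorectal cancer. Cells stained for CD4 and positive for the red reporter were split into a GPR15-GFP+ and a GPR15-GFP- fraction (GPR15+ and GPR15- below), with 3 arrays each. The samples of both fractions are numbered 1, 5 and 6 in their titles. The labels do not say whether a number marks an animal or a pool, so all errors and p-values refer to the variation among these 6 samples alone.

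Cohesin is a ring of the ATPases SMC1A and SMC3 closed by RAD21, to which either STAG1 or STAG2 binds as a further subunit. NIPBL loads the ring and drives it to extrude DNA loops, WAPL releases it, PDS5A and PDS5B bind the ring and act in both its release and its stable hold, and CTCF bound to DNA halts it and so sets loop anchors. Cohesin also holds sister chromatids together until mitosis, and in T cells its loops shape antigen receptor and cytokine loci.

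The deposited values are log2 intensities, so a difference of 1 is a doubling. Array medians lay between 6.49 and 6.64, and the pair numbered 1 was narrower in its values (SD 1.63 in both fractions against 1.74 to 1.87 elsewhere). Gpr15, the gene behind the sort, lay lower on the GPR15+ arrays (7.86 to 8.28) than on the GPR15- arrays (8.50 to 9.12). This goes against the labels, though the difference did not pass (limma adjusted p = 0.773). The sort was on the green reporter, and whether this row follows the reporter was not tested. Each direction below rests on the labels alone. Of 8 measured T cell and Treg markers, 7 lay above the 90 percentile of mean level, the exception being the interleukin-2 receptor gene Il2ra at the 20.0 percentile, and Foxp3 was not analysed here. Of the markers of other cells, 2 of 9 epithelial and 1 of 8 macrophage genes lay above 0 in GPR15+ minus GPR15-. So did 2 of 6 B and plasma cell and 1 of 7 stromal genes, and none of these markers passed limma's test over all genes. Of all genes 40.8% lay above 0, with 28% at 5 to 6 and 33.5% at 6 to 7 log2 units. The list medians, in this order, were -0.25, -0.18, -0.28 and -0.105. With the trend of the difference with mean level removed they were -0.17, -0.06, -0.16 and 0.02. Of the B and plasma cell list, Jchain differed most, by -1.13, but by -0.07 in number 6. Markers lower in GPR15+ without overlap were found in each list. They were 2 epithelial (Vil1 and Phgr1), 1 macrophage (Lyz2), 2 B and plasma cell (Cd79a and Mzb1) and 1 stromal gene (Cdh5). Free of overlap in either direction were 13.3% of all genes. Mean levels of the B and plasma cell list lay at 5.65 to 5.92 on GPR15+ and at 6.05 to 6.28 on GPR15- arrays. Those of the epithelial list lay at 6.43 to 6.78 and 6.73 to 6.89, those of the macrophage list at 5.84 to 6.39 and 6.20 to 6.44, and those of the stromal list at 6.48 to 6.67 and 6.56 to 6.67. Their part in the differences below was not tested. In sorted bulk samples, fewer cells of a type and less RNA per cell cannot be told apart.

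Promoter windows from RefSeq (GRCm38.p6, 250 bases before to 50 after a gene's start) were found for 7 of the 10 genes. The 4 shown belong to Stag1 and Pds5a, whose arrays did not overlap between fractions, and to Smc3 and Ctcf, which varied most between the numbered samples. Capitals mark the letters AAATGGCG (the core of a YY1-type element), GGGCGG (a GC box), CCAAT and CCGGAA (an ETS-type core) on either strand. The motifs were chosen after the sequences had been read. In Stag1 the AAATGGCG match shares its last base with a GC box. The windows are chr9:100643198-100643497 on the plus strand (Stag1), chr5:65698187-65698486 on the minus strand (Pds5a), chr19:53600146-53600445 on the plus strand (Smc3) and chr8:105636288-105636587 on the plus strand (Ctcf).
Stag1: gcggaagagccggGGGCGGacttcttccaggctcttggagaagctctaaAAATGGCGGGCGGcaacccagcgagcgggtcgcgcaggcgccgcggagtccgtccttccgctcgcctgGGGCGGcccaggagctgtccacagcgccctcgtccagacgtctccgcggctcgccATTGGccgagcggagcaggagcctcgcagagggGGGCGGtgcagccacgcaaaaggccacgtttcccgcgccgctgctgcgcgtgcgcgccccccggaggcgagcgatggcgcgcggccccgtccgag
Pds5a: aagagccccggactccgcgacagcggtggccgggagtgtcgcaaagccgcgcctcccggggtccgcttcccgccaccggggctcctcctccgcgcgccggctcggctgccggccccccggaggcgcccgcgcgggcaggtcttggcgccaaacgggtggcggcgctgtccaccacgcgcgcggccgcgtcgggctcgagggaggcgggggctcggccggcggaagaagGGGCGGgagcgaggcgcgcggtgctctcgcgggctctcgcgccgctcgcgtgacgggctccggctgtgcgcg
Smc3: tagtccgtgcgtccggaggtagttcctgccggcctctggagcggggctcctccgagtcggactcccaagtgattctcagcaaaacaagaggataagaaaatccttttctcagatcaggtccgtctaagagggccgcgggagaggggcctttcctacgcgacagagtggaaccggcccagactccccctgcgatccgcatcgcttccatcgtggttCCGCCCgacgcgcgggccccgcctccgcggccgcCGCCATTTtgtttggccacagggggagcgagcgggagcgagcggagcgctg
Ctcf: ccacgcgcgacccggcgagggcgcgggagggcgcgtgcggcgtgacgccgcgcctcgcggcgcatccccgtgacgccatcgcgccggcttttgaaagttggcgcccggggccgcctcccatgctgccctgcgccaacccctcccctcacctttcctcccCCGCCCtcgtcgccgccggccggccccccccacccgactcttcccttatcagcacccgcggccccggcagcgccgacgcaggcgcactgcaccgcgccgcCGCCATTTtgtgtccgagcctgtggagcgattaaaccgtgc
All 7 windows were rich in G and C (58.3% to 80.3%, against a median of 52.7% over 32851 windows) and held 23 to 55 CpG dinucleotides against a median of 7. AAATGGCG was found in 5 of the 7 (Stag1, Smc3, Wapl, Pds5b and Ctcf) and in 0.755% of all windows of this length. Among those 5 genes, the arrays of Stag1 did not overlap between fractions, and those of Smc3, Wapl, Pds5b and Ctcf did. AAATGGCG was not found in the window of Pds5a, whose arrays did not overlap either. GGGCGG was found in 7 of 7 and in 35.7% of all windows, CCAAT in 4 and in 37.4%, and CCGGAA in 2 and in 14.9%. These are matches of letters, not shown binding sites.

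Across the 10 genes, the interchangeable subunits Stag1 and Stag2 lay higher in GPR15+ Tregs, by 0.94 and 0.96 log2 units, while the ring subunits Smc1a, Smc3 and Rad21 lay within 0.22. All 10 differences were above 0, as were 40.8% of all genes, and their median was 0.21 against -0.06 for all genes. Stag1 had been selected on this difference, so the counts and the median given here are in part set by that choice. Without Stag1 and Stag2 the median of the remaining 8 was 0.155. The share of all genes above 0 differed by mean level, with 28% at 5 to 6 and 61.9% at 8 to 9 log2 units. Of the 10 genes 8 were above the median level. With quantile normalization 8 of the 10 lay above 0, and 8 also with the trend of the difference with mean level removed. Of the 10 genes 5 lay higher in GPR15+ in all 3 numbers at once, as did 13.4% of all genes. The arrays of the fractions did not overlap for 3 of the 10, Stag1, Stag2 and Pds5a, all higher in GPR15+. Of all genes 4.12% were free of overlap with GPR15+ higher, and 13.3% in either direction. The count above 0 was 6 of 10 without GPR15+ replicate 5 and 7 without GPR15- replicate 1 or GPR15+ replicate 6, and the count without overlap was 8 without GPR15+ replicate 1, where the share of all genes with GPR15+ higher was 17.5%. With limma, 0.00% of the 19494 genes passed after adjustment over all genes (smallest adjusted p 0.540, 1214 genes at an unadjusted p under 0.05), these 10 included. With the number as a replicate block 0 genes passed as well, at a smallest limma adjusted p of 0.0750. With weighted arrays 2174 genes passed, in a fit that stopped before convergence and gave GPR15+ replicate 6 a weight of 6.56 against 0.19 to 1.72 for the others.

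**Figure D1:**
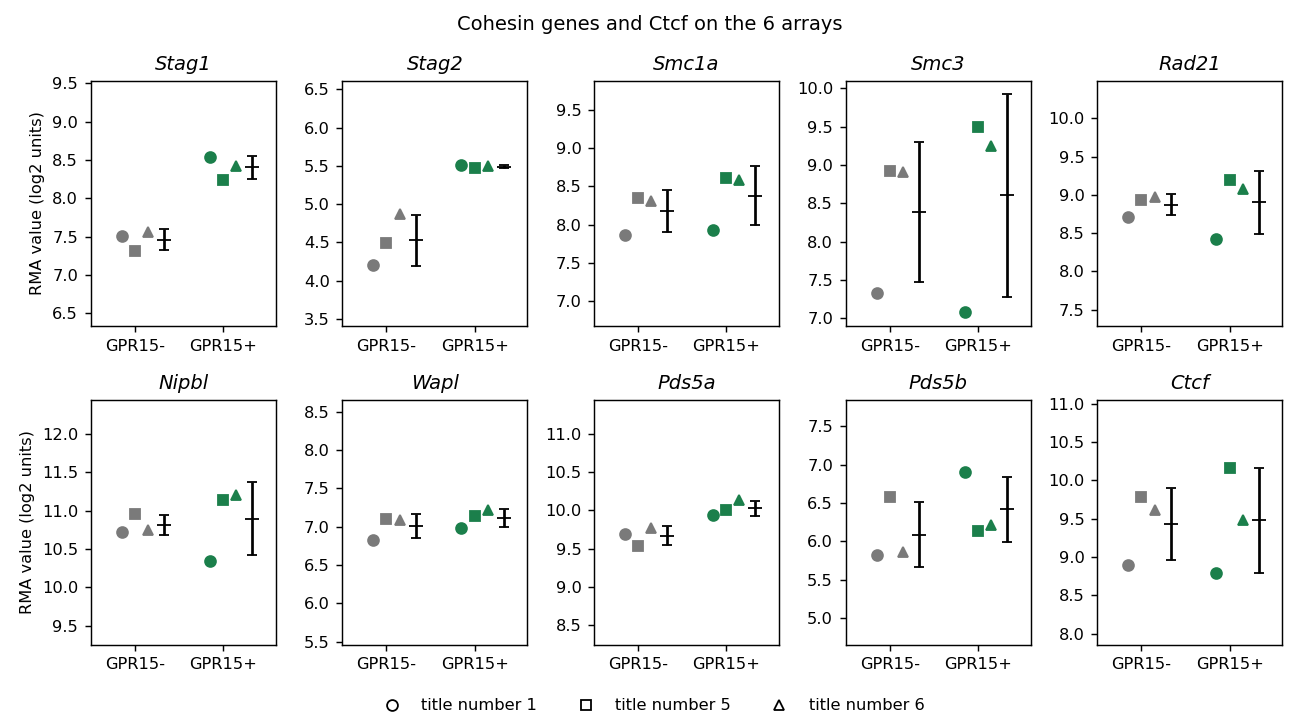
RMA values (log2 units) of the 10 genes on each of the 6 arrays; points are arrays, shaped by title number, and bars give the mean and SD of each fraction (n = 3). Each panel spans the same range of log2 units around its own mean. The GPR15+ points of Stag1, Stag2 and Pds5a all lie above the GPR15- points, and Smc3 and Ctcf lie low on both arrays numbered 1.

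Stag1, which encodes the cohesin subunit also used at telomeres, lay at 7.51, 7.31 and 7.56 in the GPR15- samples numbered 1, 5 and 6 and at 8.54, 8.24 and 8.42 in the GPR15+ samples. Every GPR15+ array stood above every GPR15- array. The means were 8.40 ± 0.15 (SD, n = 3) and 7.46 ± 0.13 (SD, n = 3), a difference of 0.94 ± 0.17 (SE) or 1.92-fold. Within the numbers the difference was 1.04, 0.93 and 0.86, and with 1 array left out it stayed between 0.87 and 1.02.

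Stag2, which encodes the more abundant partner in most somatic cells, lay at 4.21, 4.50 and 4.88 in GPR15- and at 5.51, 5.47 and 5.49 in GPR15+. The 3 GPR15+ arrays were nearly equal (SD 0.02), and the spread lay among the GPR15- arrays (SD 0.33). The difference was 0.96 ± 0.20 (SE), or 1.95-fold, and 1.30, 0.97 and 0.62 within the numbers. This row was dim, at the 17.5 percentile of mean level, and no detection call was at hand, so how much of its signal comes from the Stag2 transcript is not known here.

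The value of Stag1 less that of Stag2 was 3.30, 2.81 and 2.69 on the GPR15- arrays and 3.04, 2.77 and 2.92 on the GPR15+ arrays. These ranges overlap, and their means of 2.93 ± 0.32 (SD, n = 3) and 2.91 ± 0.13 (SD, n = 3) differed by -0.02. Within the numbers the difference was -0.26 for 1, -0.04 for 5 and 0.24 for 6, so it lay on either side of 0. No test was made of it, and it does not show that both genes changed equally. The probes of the 2 rows differ, so the gap itself does not say which transcript was more abundant.

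Of the ring, Smc1a lay at 7.86, 8.35 and 8.31 in GPR15- and at 7.93, 8.61 and 8.59 in GPR15+. Both arrays numbered 1 were lowest and the fractions overlapped, with a difference of 0.20 ± 0.24 (SE). Smc3 lay at 7.33, 8.92 and 8.91 in GPR15- and at 7.08, 9.49 and 9.24 in GPR15+. Its arrays numbered 1 stood far below the other 4, and its difference of 0.22 ± 0.68 (SE) was smaller than the spread within either fraction (SD 0.91 and 1.33). With the number as a block the SE was 0.20. Rad21, the subunit that separase cleaves at anaphase, lay at 8.71, 8.93 and 8.97 in GPR15- and at 8.43, 9.20 and 9.07 in GPR15+. It overlapped as well, at 0.03 ± 0.23 (SE). In the number 1 samples Smc3 and Rad21 lay lower in GPR15+, by -0.25 and -0.28, and in numbers 5 and 6 higher, by 0.57 and 0.34 for Smc3 and by 0.27 and 0.10 for Rad21.

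The loader gene Nipbl lay at 10.72, 10.96 and 10.74 in GPR15- and at 10.35, 11.14 and 11.20 in GPR15+. The GPR15+ arrays held both its lowest and its highest value, and its difference of 0.09 ± 0.25 (SE) turned from -0.37 in number 1 to 0.18 and 0.46 in 5 and 6. Wapl, the release factor, lay at 6.83, 7.10 and 7.09 in GPR15- and at 6.99, 7.14 and 7.22 in GPR15+. It was above 0 in every number but by little, at 0.16, 0.04 and 0.12.

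The PDS5 genes differed in how regular they were. Pds5a lay at 9.70, 9.53 and 9.77 in GPR15- and at 9.94, 10.01 and 10.13 in GPR15+. Its fractions did not overlap, and the difference of 0.36 ± 0.16 (SE), or 1.28-fold, was 0.24, 0.48 and 0.36 within the numbers. After the arrays were quantile-normalized again 2 of the 10 genes were without overlap, and 5.17% of all genes with GPR15+ higher. Pds5b lay at 5.83, 6.57 and 5.86 in GPR15- and at 6.90, 6.14 and 6.21 in GPR15+. Its fractions overlapped, and a difference of 0.33 ± 0.29 (SE) came from 1.08 in number 1 against -0.44 in 5 and 0.35 in 6. Without both arrays numbered 1 it was -0.042.

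Ctcf lay at 8.90, 9.78 and 9.62 in GPR15- and at 8.79, 10.16 and 9.48 in GPR15+. The fractions overlapped throughout, at 0.05 ± 0.37 (SE; 0.17 with the number as a block), and the arrays numbered 1 were again the lowest. Ctcf and Rad21, at 0.05 and 0.03, lay at -0.066 and -0.12 with quantile normalization, and at -0.042 and -0.064 once the trend of the difference with mean level was removed. That trend put 61.9% of genes at 8 to 9 log2 units above 0, against 33.5% at 6 to 7. With it removed, Stag1 stood at 0.91, Stag2 at 1.09 and Pds5a at 0.28.

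**Figure D2:**
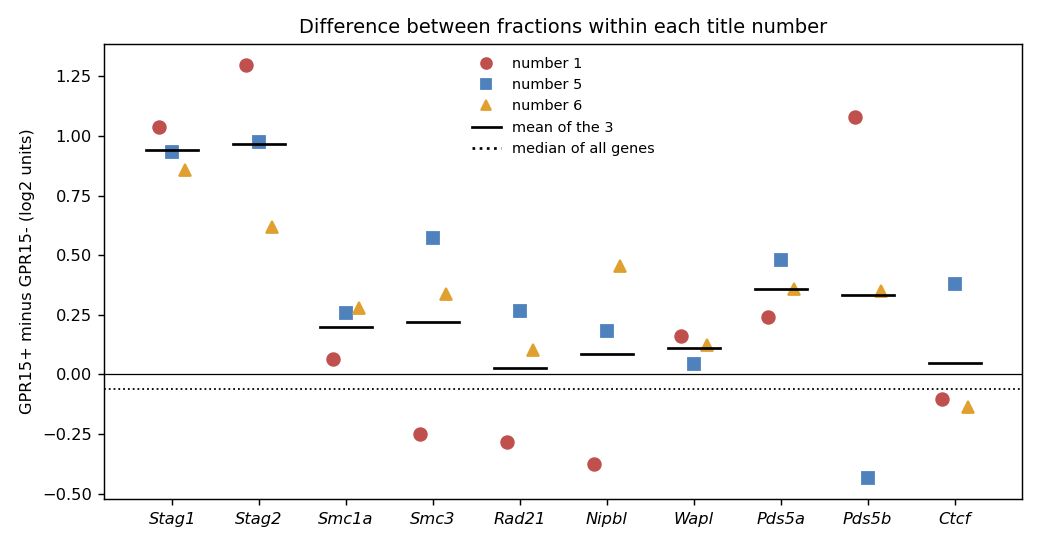
Difference GPR15+ minus GPR15- (log2 units) of each gene within the samples numbered 1, 5 and 6 (points), with the mean of the 3 (bar) and the median of all genes at -0.06 (dotted line). Stag1 and Stag2 lie at 0.62 or more in every number, whereas Smc3, Rad21 and Nipbl lie below 0 in number 1 and above 0 in 5 and 6.

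The members thus followed separate courses over the 6 arrays, described here by Pearson's r with no p because the points share arrays and their scaling. Stag1, Stag2 and Pds5a correlated at 0.88 to 0.92 with each other. Smc1a, Smc3, Rad21, Nipbl, Wapl and Ctcf correlated at 0.68 to 0.97, highest for Smc1a with Smc3 (0.97) and Smc3 with Rad21 (0.96). Between these sets r lay between -0.14 and 0.615, with a median of 0.205 over 18 pairs. Pds5b joined neither, with r from -0.49 with Rad21 to 0.42 with Stag1. The sets were read from these values and are a description.

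**Figure D3:**
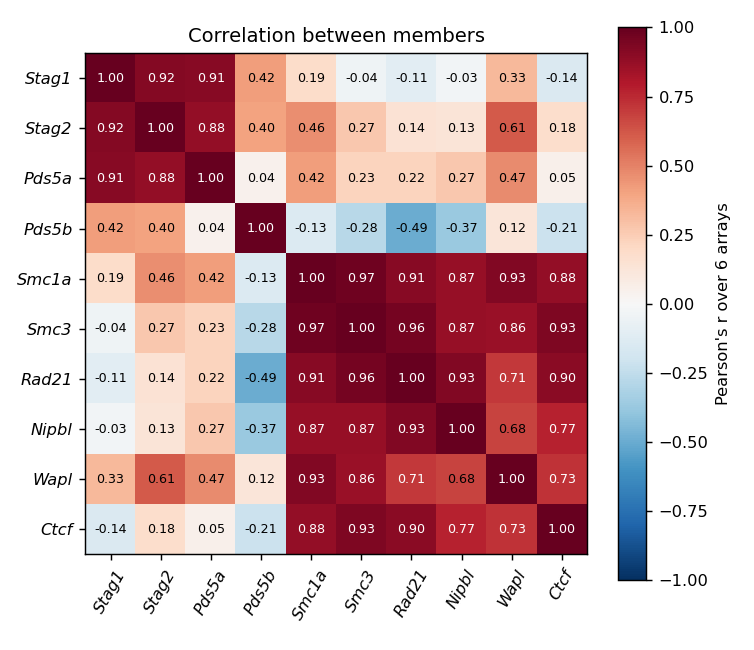
Pearson's r between the genes over the 6 arrays, coloured from -1 (blue) to 1 (red). Stag1, Stag2 and Pds5a form a block with r of 0.88 or more, and Smc1a, Smc3, Rad21, Nipbl, Wapl and Ctcf form a second block with r of 0.68 or more.

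The choice of genes did not use differences between the numbers, so these were tested in each gene with limma's F test in a fit that also held the fraction. Of the 10 genes 1 passed, Smc3 (limma adjusted p = 0.0277), against 1.82% of all genes. Its mean over both fractions was 7.21 in number 1, 9.21 in 5 and 9.07 in 6. The mean of number 1 less that of the others was -1.93, and it was low in both fractions. Ctcf came next at 8.85, 9.97 and 9.55 and did not pass (limma adjusted p = 0.0775, and 0.0498 without GPR15- replicate 1), nor did Smc1a at 7.90, 8.48 and 8.45 (limma adjusted p = 0.198). Stag1 (8.03, 7.78 and 7.99) and Pds5a (9.82, 9.77 and 9.95) gave limma adjusted p of 0.644 and 0.791. Smc3 did not pass without GPR15+ replicate 1 (limma adjusted p = 0.0560) or with weighted arrays (0.0585). It passed with the arrays quantile-normalized again (limma adjusted p = 0.0321), and without both arrays numbered 1 the remaining numbers differed by 0.14 (limma adjusted p = 0.919).

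For 6 of the 10 genes both arrays numbered 1 lay below the other 4, as for 15.8% of all genes. The share rises with level, and it was 40.1% among the 3943 genes with a mean of 8 to 11 log2 units, where Smc1a, Smc3, Rad21, Nipbl, Pds5a and Ctcf lie. In that range the median of number 1 less the others was -0.27. It was -0.92 for Ctcf, -0.57 for Smc1a, -0.48 for Rad21, -0.48 for Nipbl and -0.04 for Pds5a. Of those genes 29, or 0.735%, lay as far below as Smc3 or further. These are also the arrays of narrower distribution, and the part of that in the lower values was not tested.

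**Figure D4:**
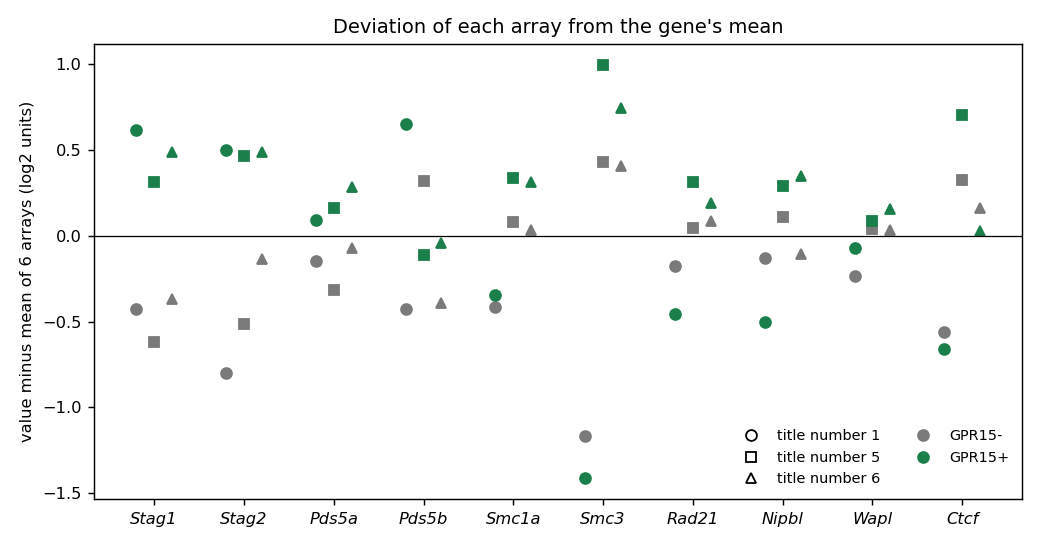
Value of each array less the gene's mean over the 6 arrays (log2 units), grey for GPR15- and green for GPR15+, shaped by title number. For Stag1, Stag2 and Pds5a the colours separate, and for Smc1a, Smc3, Rad21, Nipbl, Wapl and Ctcf the circles of number 1 lie below the other points.

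Stag2 and Smc1a lie on the X chromosome, and the numbers differ in Y-linked genes. Uty lay at 7.56 in number 1, 8.63 in 5 and 4.43 in 6 (limma adjusted p = 0.00923 between numbers), and Kdm5d at 6.01, 6.55 and 3.74 (limma adjusted p = 0.0140). The other measured Y-linked gene, Eif2s3y, was lowest in 6 as well but did not pass (limma adjusted p = 0.373). Smc1a was at nearly the same mean in number 6 (8.45) as in number 5 (8.48), and Stag2 lay at 5.18 in 6 and 4.98 in 5 (limma adjusted p = 0.629 over the numbers). With 1 number of low Y-linked signal, sex and number cannot be told apart.

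Genes that act on cohesin were tested between the fractions with limma over all genes. Of 16 cofactors 9 lay above 0 and 7 below, and of all genes 40.8% lay above 0. Of the cofactors 0 passed in either direction, and their median was 0.04. Esco1, the acetyltransferase that acts on SMC3 throughout interphase, lay at 7.59, 7.32 and 7.83 in GPR15- and at 7.35, 8.69 and 8.58 in GPR15+. It was higher in GPR15+ in numbers 5 and 6 and lower in 1, and its difference of 0.63 ± 0.36 (SE) did not pass (limma adjusted p = 0.773). Its S-phase counterpart Esco2 differed by -0.03, the SMC3 deacetylase Hdac8 by -0.07 and Mau2, the partner of NIPBL, by 0.05. The genes of cohesion in mitosis stood on either side of 0, with Espl1 (separase) at -0.31, Pttg1 (securin) at -0.18, Cdca5 (sororin) at 0.18 and Sgo1, a protector of centromeric cohesin, at 0.18. Of the 16 cofactors 1 had fractions without overlap, beside 13.3% of all genes in either direction. It was the replication-linked clamp loader subunit Chtf18, at -0.21. Tipin, also replication-linked, spread most, at -1.33, 1.65 and 0.45 within the numbers. The other 6 cofactors (Sgo2a, Haspin, Ddx11, Dscc1, Chtf8 and Timeless) lay between -0.13 and 0.11. A list of 12 measured proliferation genes had a median of -0.03, which turned above 0 with each rescaling of the arrays, and Mki67 differed by -0.05. Its largest difference was that of Birc5, a subunit of the chromosomal passenger complex, at -0.54 ± 0.15 (SE), which did not pass (limma adjusted p = 0.773). Birc5 was the 1 gene of the 12 whose fractions did not overlap, and within the numbers it differed by -0.59, -0.57 and -0.47.

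No gene of the related SMC complexes passed between the fractions. Condensin, which compacts mitotic chromosomes, had 5 of 8 subunits above 0, beside 40.8% of all genes, and a median of 0.33. It had 2 of the 8 higher in GPR15+ without overlap, beside 4.12% of all genes. Its ATPase gene Smc2 lay at 5.98, 5.74 and 5.84 in GPR15- and at 6.51, 6.27 and 6.26 in GPR15+. These did not overlap, and the difference of 0.49 ± 0.17 (SE) was almost equal in the numbers, at 0.53, 0.53 and 0.42 (limma adjusted p = 0.773). Smc4, its partner, differed by 0.53, with -0.22 in number 1 against 0.92 and 0.89 in 5 and 6, Ncapd3 by 0.48 and Ncaph2 by 0.38. Of 9 genes of the SMC5/6 complex, a DNA repair relative, with Smchd1, an SMC protein of X inactivation, 8 lay above 0. This again stands beside 40.8% of all genes, and 61.9% of those at 8 to 9 log2 units. Of the 9 genes 7 were above the median level. The median of the 9 was 0.43, and 0.39 with the level trend removed. By number the median without that removal was -0.03 in 1, 0.53 in 5 and 0.59 in 6. Smchd1 lay at 9.49, 9.11 and 8.40 in GPR15- and at 9.99, 9.64 and 9.51 in GPR15+. It was the 1 gene of the 9 without overlap. Its difference was 0.71 ± 0.29 (SE), that of Smc6 0.70 ± 0.31 (SE) and that of Nsmce2 0.46 ± 0.28 (SE). In number 1 Smc6 and Nsmce2 lay lower in GPR15+, by -0.24 and -0.37, and in 5 and 6 higher, by 0.92 and 1.43 for Smc6 and by 0.85 and 0.92 for Nsmce2. Nsmce1 had the largest difference, 0.96 ± 0.84 (SE; 0.23 with the number as a block), and did not pass with the block (limma adjusted p = 0.286). It lay higher in GPR15+ in every number, by 0.58, 1.61 and 0.68. Its levels spread between numbers as those of Smc3 did, with means of 5.59, 7.93 and 8.05 in 1, 5 and 6 (limma adjusted p = 0.0236).

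Of 9 measured genes for other architecture factors 8 lay above 0, with a median of 0.21. Of all genes 40.8% lay above 0, and 61.9% of those at 8 to 9 and 65.8% of those at 9 to 10 log2 units. Of the 9 genes 8 were above the median level. With the level trend removed their median was 0.13, and with quantile normalization 0.11. The chromatin organiser Satb1 lay at 10.36, 9.92 and 9.70 in GPR15- and at 11.23, 10.41 and 10.57 in GPR15+. Its difference was 0.74 ± 0.27 (SE; limma adjusted p = 0.773). It was the 1 gene of the 9 without overlap, beside 4.12% of all genes with GPR15+ higher. Top2b, a topoisomerase found at loop anchors, differed by 0.67, with -0.03 in number 1 against 0.93 and 1.11 in 5 and 6. Maz differed by 0.39 and Ldb1 by 0.22. The 5 paralogs of germ cells all lay below 0, at Smc1b -0.52, Stag3 -0.24, Rec8 -0.17, Ctcfl -0.05 and Rad21l -0.02. Smc1b was the 1 gene of these 5 whose fractions did not overlap, beside 13.3% of all genes in either direction. Of all genes at 5 to 6 log2 units 28.0% lay above 0, and with the level trend removed Rad21l and Ctcfl lay at 0.05 and 0.06. Stag3, the meiotic relative of Stag1 and Stag2, was at the 4.92 percentile of mean level, and all 5 were below the median level, so these rows were dim. Between the fractions 0 genes of these lists passed in either direction.

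**Figure D5:**
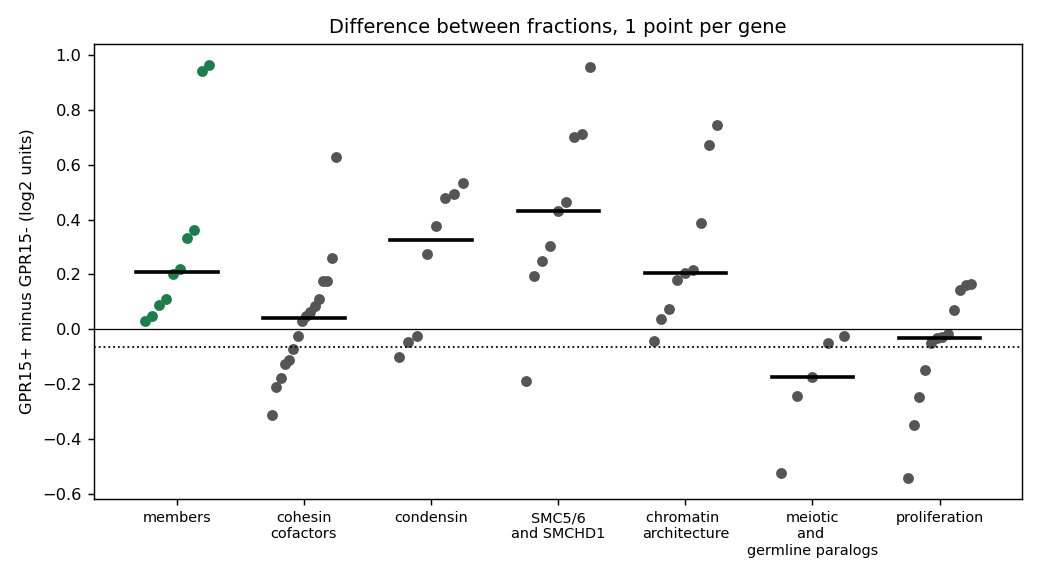
Difference GPR15+ minus GPR15- (log2 units) of every measured gene of each list (points, sorted within a list), with the list's median (bar) and the median of all genes at -0.06 (dotted line). The medians lie at 0.21 for the 10 genes described, 0.04 for cofactors, 0.33 for condensin, 0.43 for SMC5/6, 0.21 for architecture factors, -0.17 for germline paralogs and -0.03 for proliferation.

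Among 9336 named genes above the median level, those whose values ran most like Stag1 over the 6 arrays were Tor1aip1 (r = 0.995), St8sia1 (0.990), Ddit3 (0.989), Gbp9 (0.987) and Ube4b (0.984). Tor1aip1 encodes an inner nuclear membrane protein and St8sia1 a ganglioside sialyltransferase, and they differed between fractions by 0.93 and 0.87. Those most like Stag2 were Snx1 (r = 0.988), Inpp4b (0.987), Pbx2 (0.982), Ctdsp1 (0.981) and Pogz (0.980), with differences of 0.69, 1.18, 0.64, 0.42 and 0.50. Stag1 and Stag2 correlated with each other at 0.92. With 6 arrays, values of r this high are found by taking the best of many genes.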

How the data were processed

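Per array, the authors deposited a log2 value for each probe set, made with RMA (background correction, quantile normalization and probe summary), per the submitters' processing notes; the software version and genome build are not given in the sources used here. Of 22142 rows, 19527 had 1 gene symbol, 0 several and 2615 none, in the platform annotation. For 33 genes with more than 1 row the row of highest mean was used. limma 3.58.1 in R 4.3.3 (lmFit, eBayes) was fitted to all 19494 genes and p-values were adjusted by Benjamini-Hochberg over all of them at 0.05; scripts were checked on simulated data. With 3 arrays against 3, an exact permutation test of 1 gene cannot go below 0.1 (2-sided). The number of arrays limits the precision.

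Samples of equal number deviated together from the fraction means (r = 0.567, 0.381 and 0.319 for 1, 5 and 6), which sets number 1 apart from the others. The fit and every SE given without further words leave the number out, and the fit with the number as a block is the alternative. Numbers 5 and 6 also correlated across fractions (0.315 and 0.213), so these values alone do not show that 5 pairs with 5 and 6 with 6.

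The genes and lists were chosen with earlier results of these data known. The text names all 10 genes, the cofactor and germline lists, up to 4 genes of each further list by size of difference, and the 5 genes most like Stag1 and Stag2; the Y-linked genes and Mki67 were named for what they encode. Alternatives were the replicate block, median centring, quantile normalization, removal of the level trend (loess), leaving out the 40% dimmest genes, the mean of rows, array weights, leaving out number 1 and leaving out each array. Protein sequences were not used here.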

Additional observations from a re-analysis of the deposited data

How the results depend on the processing

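No gene passed between the fractions under any setting but array weights, where 2174 did. Those weights ran from 0.19 (GPR15+ replicate 1) to 6.56 (GPR15+ replicate 6) and their fit stopped before convergence, so that count rests largely on 1 array. The replicate block leaves each difference as it is and called 0 genes. Stag1, Stag2, Pds5a, Smc1a and Wapl stayed above 0 under every setting that kept them; Stag2 fell out with the 40% dimmest genes. The median of the 10 lay, over the 6 fits that each omit 1 array, between 0.045 (GPR15- replicate 1 omitted) and 0.40 (GPR15+ replicate 1 omitted), and the number above 0 between 6 (GPR15+ replicate 5 omitted) and 10. The number without overlap lay between 3 and 8 in these settings and was 8 without both arrays numbered 1. Of all genes, 4.12% were free of overlap with GPR15+ higher, 6.56% to 17.5% with 1 array left out and 21.4% without both arrays numbered 1. Counted in either direction, 2591 genes were free of overlap, 3583 to 9310 with 1 array left out, 10919 without both arrays numbered 1 and 1583 without the dimmest genes; fewer arrays or genes change these counts by construction.

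The change of Stag1 less that of Stag2 (-0.02) was 0.090 with array weights and 0.098 without both arrays numbered 1. With 1 array left out it lay between -0.14 (GPR15- replicate 6) and 0.16 (GPR15- replicate 1), and was 0.048 when GPR15+ replicate 5 was omitted; the cause was not tested.

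Between numbers 354 genes passed; 149 did with quantile normalization, 45 with array weights, 1 without both arrays numbered 1, and 96 (GPR15+ replicate 1 omitted) to 1988 (GPR15- replicate 1 omitted) with 1 array left out. Of the 10 genes, 0 passed with array weights and 0 without both arrays numbered 1, and 0 to 2 with 1 array left out, the second being Ctcf (limma adjusted p = 0.0498, GPR15- replicate 1 omitted).

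Small differences turned sign. With quantile normalization and with the trend removed, Rad21 was -0.12 and -0.064 and Ctcf -0.066 and -0.042; Ctcf was -0.045 with array weights, and Pds5b -0.042 without both arrays numbered 1. With 1 array left out, Rad21 lay between -0.12 and 0.27, Ctcf between -0.29 and 0.39, Smc3 between -0.31 and 0.98, and Nipbl between -0.064 and 0.36, the highest always with GPR15+ replicate 1 omitted. The cofactor median was -0.11 without the dimmest genes and lay between -0.011 and 0.043 with 1 array left out. The proliferation median was 0.045 with centred arrays, 0.018 with quantile normalization, 0.053 with the trend removed, 0.047 without both arrays numbered 1, and between -0.062 and 0.020 with 1 array left out.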
